A study of Mus musculus with 24 samples.

Results

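The 10 genes described here encode ligands and receptors with which a macrophage stimulates or restrains T cells and tumor cells. They are Cd274 (PD-L1), Pdcd1lg2 (PD-L2), Cd80, Cd86, Cd40, Icosl, Havcr2 (TIM-3), Vsir (VISTA), Lgals9 (galectin-9) and Tnfsf10 (TRAIL). They were taken by symbol, and all 10 were found among the 35770 gene names of the deposited table. CD40 and TIM-3 are receptors on the macrophage itself, and the other members can act as ligands for receptors on neighbouring cells.

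A T cell that meets antigen needs a second signal, which CD80 and CD86 give through CD28 and take away through CTLA-4. PD-L1 and PD-L2 bind PD-1 and restrain the T cell, and in macrophages PD-L1 is a classical interferon gamma target while PD-L2 is known as a target of IL-4 and STAT6. CD40 receives the signal of CD40 ligand from T cells and licenses antigen presentation.

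Primary murine bone marrow-derived macrophages (BMDMs) were grown from C57BL/6 marrow with M-CSF, which drives macrophage differentiation. For 24 h they were held in control media or in conditioned media (CM) from LL2 cells, a Lewis lung carcinoma line, that were wild type (WT), KEAP1 KO or NRF2 KO. The CM had been conditioned for 48 h and made up 75% of what the macrophages received. Each medium was given with vehicle or with 100 nM CDDO-Me, a synthetic oleanane triterpenoid that activates NRF2, which makes 8 groups of 3 libraries. The KEAP1 and NRF2 genes were edited in the LL2 cells, and the macrophages carried neither deletion. The library names give a single line for each KO, so differences between lines and effects of the deletion cannot be told apart. All groups had M-CSF during differentiation. The 3 samples of a group were described as independent, without a statement on whether they came from separate mice, so the p-values measure only the spread between these samples.

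Levels were taken as TPM, transcripts per 1000000 transcripts, because each library summed to 1000000 over all its lines. TPM are the length-corrected share of each gene among all transcripts and can be compared between genes. The file is named as counts, and counts scaled to this total would sum alike. Comparisons of level between genes rest on the reading as TPM. TPM add up to a nearly fixed total, from 999365 to 999801 per library over the named genes, so they do not show the depth of each library. The authors state only an average depth, and no counting interval was computed. Between 15702 and 18993 genes were above 0 per library. The lowest numbers were those of replicate 3 of NRF2 KO CM/vehicle and replicate 3 of NRF2 KO CM/CDDO-Me. These 2 libraries also stood apart from their groups, with 1824 and 1127 of 13661 genes at least 1.5-fold above both other libraries of the group, against 121 to 636 in the other libraries. Calls of the members that depend on them are given with and without them. Calls for the other gene lists and the cell markers below are given only with both libraries included. How far those calls in NRF2 KO CM depend on these libraries was not tested.

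The macrophage markers were present in every library, with all 10 of 10 above 1 TPM and Lyz2 the most abundant at a mean of 18121 TPM. Of the 8 T cell markers, 5 stayed below 1 TPM in every library, and Cd28 was the most abundant at a mean of 29.7 TPM. The fibroblast markers, led by Col1a2, summed to between 162 and 2013 TPM. In all 8 groups, the library numbered 2 had the highest fibroblast sum and the library numbered 3 the lowest. Cd274 was lowest in the library numbered 2 in 8 of 8 groups and highest in the library numbered 3 in 7 of 8, and Pdcd1lg2 was highest in the library numbered 3 in 8 of 8. Havcr2 was highest in that library in 7 of 8 groups and Cd86 in 6 of 8. Lgals9 went the other way, lowest in the library numbered 3 in 7 of 8 groups and highest in the library numbered 1 in 7 of 8. The part of the fibroblast RNA in the spread of these genes was not tested. In bulk RNA, fewer cells of a type and less RNA per cell cannot be told apart.

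Cd274 and Pdcd1lg2 are neighbours on chromosome 19 and are shown first, with short stretches of the sequence before their start sites. On GRCm39, Cd274 spans chr19:29344529-29365495 and Pdcd1lg2 chr19:29388319-29448882, both on the plus strand, with 22823 bases between them. The RefSeq promoters of 8 members, from 250 bases before to 50 bases after the start site, were searched on both strands for 4 motifs. These were a STAT6-type motif (TTCNNNNGAA), the core of an interferon-stimulated response element, ISRE (GAAANNGAA), the kappaB motif of NF-kappaB and an antioxidant response element core (TGACNNNGC). The letters of these motifs can overlap in a sequence, and each was counted on its own. Matches were found before the start site of 3 members, and these are shown because the genes carrying them respond in different ways below. Each line is written 5′ to 3′ on the strand of the gene, with the matched bases in capitals.
Cd274, ISRE core on the other strand, chr19:29344752-29344781, plus strand: actgggtggcTTCGGTTTCacagacagcgg
Pdcd1lg2, STAT6-type motif, chr19:29388227-29388256, plus strand: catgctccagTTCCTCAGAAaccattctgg
Pdcd1lg2, kappaB motif on the other strand, chr19:29388069-29388098, plus strand: tgctgtGGGGAATCCCtggtacatgtggac
Lgals9, ISRE core on the other strand, chr11:78875785-78875814, minus strand: gacatcagctTTCTTTTTCtctagacactt

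The stretches were placed on GRCm39 by exact match. The Cd274 match begins 76 bases before the RefSeq start, in an exon, outside the coding sequence, of 1 of 2 GENCODE transcripts. The Pdcd1lg2 matches begin 82 and 244 bases before its start, outside both annotated transcripts. The Lgals9 match begins 54 bases before its RefSeq start and 6 bases before the GENCODE gene start, so that it only partly overlaps an exon, in 6 of 9 GENCODE transcripts and outside the coding sequence. A second ISRE core match in Lgals9 lies after the start. The ISRE core was found in 8.56% of all 32851 promoters of this length, the STAT6-type motif in 6.95%, the kappaB motif in 5.8% and the antioxidant core in 12.39%. The promoters of Tnfsf10, Vsir, Icosl, Havcr2 and Cd80 held none of these letters in this window. Such matches are descriptions of sequence and not of binding.

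**Figure D1:**
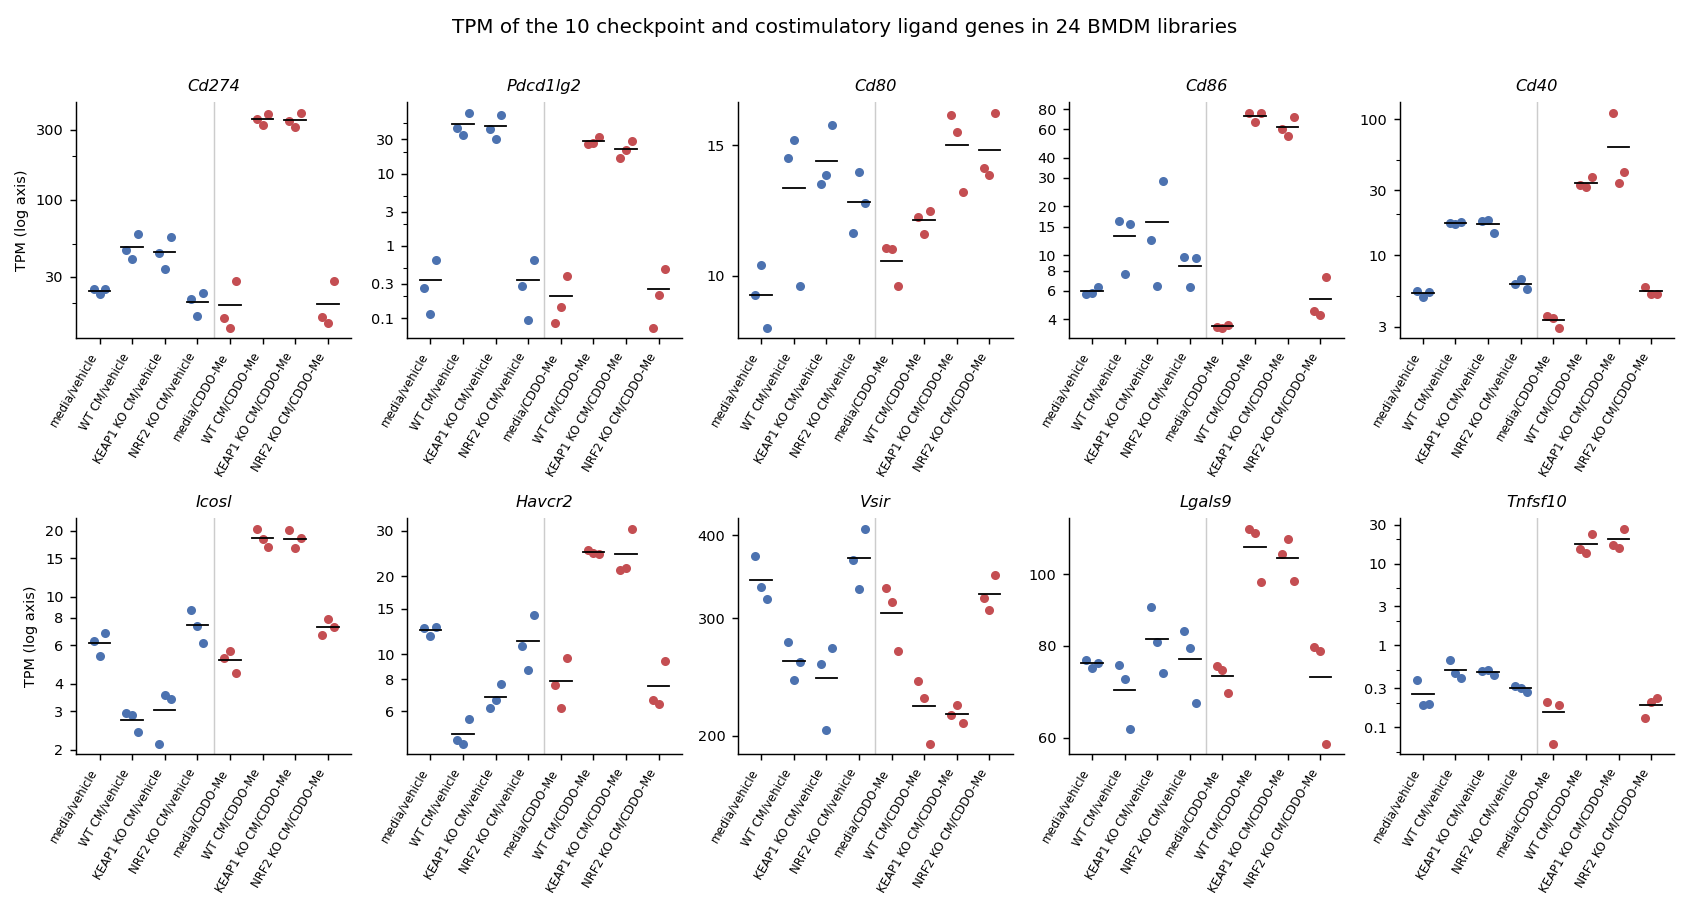
TPM (log axis, a separate scale for each gene) of the 10 genes in the 24 libraries, in 8 groups on the horizontal axis. Points are libraries in the order of their replicate numbers, bars are group means, blue is vehicle and red is CDDO-Me. The panels of 7 genes (Cd274, Cd86, Cd40, Icosl, Havcr2, Lgals9 and Tnfsf10) have their highest levels in CDDO-Me BMDMs with WT or KEAP1 KO CM, and Pdcd1lg2 has them in the same media without CDDO-Me.

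The members differed widely in level. Vsir was the most abundant, with group means from 215 to 369 TPM, and Lgals9 lay between 69.7 and 109 TPM. Cd274 ranged from 19.2 to 354 TPM, an 18.5-fold span of group means. The widest spans were those of Pdcd1lg2, from 0.204 to 49.4 TPM, and Tnfsf10, from 0.153 to 19.9 TPM. The narrowest were those of Cd80 (1.59-fold), Lgals9 (1.56-fold) and Vsir (1.71-fold). Pdcd1lg2 was above 1 TPM in 12 libraries and Tnfsf10 in 6, and the other 8 members in all 24. Both therefore passed the low-value filter, TPM above 1 in at least 3 libraries, only through the groups where they were high.

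The first comparison asked how lung cancer CM alone changed these genes, in CM/vehicle against media/vehicle BMDMs. WT CM raised Pdcd1lg2, Cd40 and Cd274 and lowered Havcr2 and Icosl. KEAP1 KO CM raised Pdcd1lg2, Cd40 and Cd80 and lowered Icosl, Havcr2 and Vsir. With NRF2 KO CM no member passed the threshold. Differences are given on the log2 scale of scaled TPM plus 1, with their standard error (SE), and a gene was called when its limma p, adjusted by the Benjamini-Hochberg method over the 13661 genes tested, was under 0.05.

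The members were chosen with earlier results of these data known, so counts of them describe the set and test nothing. With WT CM, 3 of 10 members were called higher and 2 lower, where 4.33% of all genes tested were higher and 3.02% lower. With KEAP1 KO CM, 3 were higher and 3 lower, against 4.65% and 3.31% of all genes. Without KEAP1 KO CM/vehicle replicate 1 or any 1 of the 3 media/vehicle libraries, 3 members were called for KEAP1 KO CM, as Cd80, Havcr2 and Vsir were lost. Among the 8 members above 1 TPM everywhere, 2 were higher and 2 lower with WT CM, and 2 were higher and 3 lower with KEAP1 KO CM. With NRF2 KO CM, 0 of 10 members were called, and 1 of them had an unadjusted p under 0.05. Of all genes, 0.00732% were called higher and 0% lower with NRF2 KO CM, and 1659 had an unadjusted p under 0.05.

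Pdcd1lg2 was almost silent without cancer CM, at 0.264, 0.114 and 0.650 TPM in the media/vehicle libraries. It was at 42.7, 34.8 and 70.5 TPM with WT CM and at 41.3, 30.03 and 64.5 TPM with KEAP1 KO CM. With NRF2 KO CM it was at 0.275, 0.0932 and 0.642 TPM. The WT and KEAP1 KO CM libraries lay far above the media libraries, while those of NRF2 KO CM spanned the same range as media. The mean TPM was 144-fold higher with WT CM and 132-fold higher with KEAP1 KO CM than with media. The log2 fold changes were 5.20 (SE 0.29, adjusted p = 2.62e-10) and 5.00 (SE 0.29, adjusted p = 4.95e-10). They depend on the pseudocount, from 6.98 and 6.77 with 0.1 to 3.31 and 3.12 with 5. Pdcd1lg2 passed the low-value filter only through the groups where it was high, so these p-values follow a selection by the same values. With NRF2 KO CM the log2 fold change was 0.01 (95% interval -0.60 to 0.62).

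Cd274 was expressed in naïve macrophages and changed less. It was at 24.7, 22.8 and 24.7 TPM in media/vehicle BMDMs and at 45.8, 39.7 and 58.9 TPM with WT CM. With KEAP1 KO CM it was at 43.8, 33.8 and 55.6 TPM, and with NRF2 KO CM at 21.0, 16.1 and 23.3 TPM. Every WT or KEAP1 KO CM library was above every media library. The log2 fold change was 1.02 for WT CM (SE 0.30, adjusted p = 0.0444) and 0.82 for KEAP1 KO CM (SE 0.30, adjusted p = 0.113). The WT CM call was lost in each of the 6 fits that left out 1 library of these groups, with adjusted p from 0.055 to 0.193. Over all alternatives, its adjusted p ranged from 0.000235 to 0.193. The KEAP1 KO CM difference was past the threshold without the 2 NRF2 KO libraries that stood apart (adjusted p = 0.02). It also passed with the replicate number as a block (adjusted p = 0.0026) and with array weights (adjusted p = 0.000483). Without scaling (adjusted p = 0.0467) and with the compared groups alone (adjusted p = 0.0251) it passed as well. In the 6 fits that left out 1 library, the KEAP1 KO CM difference passed 0 times. Its adjusted p ranged from 0.000483 to 0.359 over all alternatives.

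The B7 molecules CD80 and CD86, the ligands of CD28 and CTLA-4, differed less clearly. Cd86, on chr16:36424044-36486443, was at 5.78, 5.86 and 6.34 TPM in media/vehicle BMDMs and at 16.3, 7.6 and 15.5 TPM with WT CM. The KEAP1 KO CM libraries were spread most, at 12.4, 6.46 and 28.8 TPM. The replicate 2 libraries came closest to media in both. The log2 fold changes of 1.01 with WT CM (SE 0.37, adjusted p = 0.129) and 1.03 with KEAP1 KO CM (SE 0.37, adjusted p = 0.107) did not pass. The value with KEAP1 KO CM was 1.53 without replicate 2 of that group (adjusted p = 0.00884) and 0.49 without its replicate 3 (adjusted p = 0.516). It passed without the 2 NRF2 KO libraries that stood apart (adjusted p = 0.046). With the replicate number as a block, the difference with WT CM passed (adjusted p = 0.0195). Cd80, on chr16:38275923-38316697, was at 9.43, 10.3 and 8.51 TPM with media, at 13.3, 13.7 and 15.95 TPM with KEAP1 KO CM and at 14.4, 15.3 and 9.70 TPM with WT CM. In KEAP1 KO CM it rose by 0.54 (SE 0.15, adjusted p = 0.0285), a call lost in 5 of 6 fits with a library left out. With WT CM the difference was 0.48 (SE 0.15, adjusted p = 0.0614), and it passed without the 2 NRF2 KO libraries that stood apart (0.47, adjusted p = 0.015). With NRF2 KO CM, Cd80 was the member with an unadjusted p under 0.05, at 11.4, 13.8 and 12.6 TPM, and its difference of 0.41 did not pass (adjusted p = 0.406).

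Cd40, on chr2:164897544-164914868, encodes a receptor of antigen-presenting cells. It was at 5.50, 4.95 and 5.42 TPM in media/vehicle BMDMs, at 17.4, 17.0 and 17.6 TPM with WT CM and at 18.02, 18.1 and 14.6 TPM with KEAP1 KO CM. With NRF2 KO CM it was at 6.16, 6.72 and 5.63 TPM. Every NRF2 KO CM library was thus closer to media than to the other CM. The rise was 1.60 with WT CM (SE 0.27, adjusted p = 0.000528), and 1.49 with KEAP1 KO CM (SE 0.27, adjusted p = 0.000914).

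Icosl and Havcr2 moved the other way. Icosl, on chr10:77905136-77919747, encodes the ligand of ICOS, a costimulatory receptor of activated T cells. Its level was 6.30, 5.39 and 6.84 TPM with media, 2.96, 2.87 and 2.41 TPM with WT CM, 2.14, 3.56 and 3.42 TPM with KEAP1 KO CM and 8.67, 7.36 and 6.16 TPM with NRF2 KO CM. It fell by -0.88 in WT CM (SE 0.15, adjusted p = 0.000523) and by -0.85 in KEAP1 KO CM (SE 0.15, adjusted p = 0.000671). Over the alternatives, these values ranged from -1.073 to -0.494 and from -1.04 to -0.472. Havcr2, on chr11:46345673-46374149, encodes TIM-3, an inhibitory receptor of T cells and myeloid cells. It was at 12.7, 11.7 and 12.7 TPM with media and fell to 4.64, 4.51 and 5.59 TPM in the WT CM libraries, by -1.12 (SE 0.22, adjusted p = 0.0028). With KEAP1 KO CM it was at 6.21, 6.67 and 7.67 TPM (log2 fold change -0.78, SE 0.22, adjusted p = 0.0363), and with NRF2 KO CM at 10.8, 8.72 and 14.1 TPM. No library with WT or KEAP1 KO CM reached the media range for either gene, and the Havcr2 call with KEAP1 KO CM was lost in 5 of 6 fits with a library left out.

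Vsir, on chr10:60182630-60208463, encodes VISTA, an inhibitory B7 family member. It was at 372, 334 and 321 TPM with media, at 276, 243 and 258 TPM with WT CM and at 257, 204 and 271 TPM with KEAP1 KO CM. The fall with KEAP1 KO CM was -0.51 (SE 0.15, adjusted p = 0.0401) and was lost in 5 of 6 fits with a library left out. The difference with WT CM was -0.34 (SE 0.15, adjusted p = 0.228), although the groups did not overlap. It passed without the 2 NRF2 KO libraries that stood apart (-0.35, adjusted p = 0.0347), without scaling (adjusted p = 0.0417), with array weights (adjusted p = 0.0182) and with the compared groups alone (adjusted p = 0.0299). Lgals9, on chr11:78853800-78875798, encodes galectin-9, a ligand of TIM-3, and was at 61.6 to 90.5 TPM over the 9 CM/vehicle libraries against 74.7 to 76.6 TPM with media. Tnfsf10, on chr3:27371033-27396576, encodes TRAIL, which kills sensitive tumor cells through death receptors, and was below 1 TPM in all 12 vehicle libraries.

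**Figure D2:**
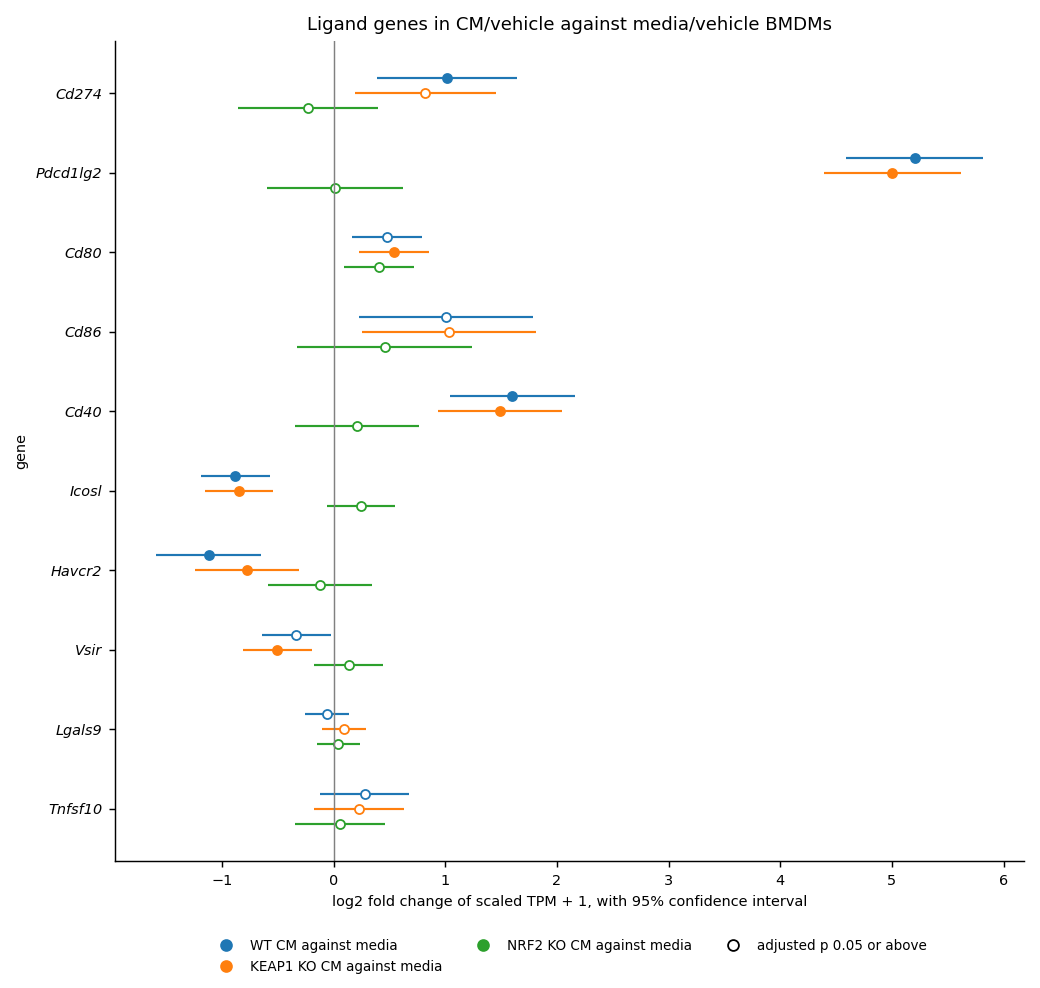
Differences of the 10 genes between CM/vehicle and media/vehicle BMDMs (horizontal axis, log2 fold change of scaled TPM plus 1), with 95% confidence intervals as lines and 1 color for each CM. Filled points had an adjusted p under 0.05. Pdcd1lg2 stands at 5.20 and 5.00 with WT and KEAP1 KO CM, and no point of NRF2 KO CM is filled.

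WT CM/vehicle and NRF2 KO CM/vehicle BMDMs, which differ in the LL2 line and its genotype, were compared directly. Of the 10 members, 6 were called, against 10.7% of all genes in either direction, and among the 8 members above 1 TPM everywhere 2 were higher with WT CM and 3 lower. Pdcd1lg2 was higher with WT CM by 5.19 (SE 0.29, adjusted p = 2.55e-10), Cd40 by 1.39 (SE 0.27, adjusted p = 0.00187) and Cd274 by 1.25 (SE 0.30, adjusted p = 0.0111). The Pdcd1lg2 value ranged from 3.3 to 6.978 over the alternatives. Icosl was lower by -1.12 (SE 0.15, adjusted p = 3.43e-05), Havcr2 by -1.0 (SE 0.22, adjusted p = 0.00653) and Vsir by -0.47 (SE 0.15, adjusted p = 0.0481). The Icosl value ranged from -1.352 to -0.653 over the alternatives. The Vsir call was lost without the 2 NRF2 KO libraries that stood apart (-0.33, adjusted p = 0.0777), and in 5 of 6 fits with a library left out, while the other 5 calls held without those 2 libraries. With the compared groups alone, 3 of the 6 calls were lost, those of Cd274 (adjusted p = 0.0935), Havcr2 (adjusted p = 0.153) and Vsir (adjusted p = 0.319). The Cd274 call was lost without WT CM/vehicle replicate 3 (1.07, adjusted p = 0.0678). Between WT and KEAP1 KO CM/vehicle BMDMs no member passed the threshold. No gene was called in that comparison (0% of all genes), and 0 members and 341 genes had an unadjusted p under 0.05. Its interval for Cd274 ran from -0.83 to 0.43 and for Pdcd1lg2 from -0.81 to 0.41.

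Of 4 dendritic cell markers tested, 1, Batf3, was called with WT and KEAP1 KO CM against media, higher in both. The summed level of the 7 markers was 10.5 TPM with media, 54.9 TPM with WT CM, 44.4 TPM with KEAP1 KO CM and 6.35 TPM with NRF2 KO CM. Batf3 made up most of it (53.4 TPM with WT CM), while Flt3, Zbtb46, Ccr7, Xcr1, Clec9a and Itgae were each below 1 TPM on average in these 4 groups. Cdh1 of the epithelial list was at 3.52 and 4.65 TPM with WT and KEAP1 KO CM and at 0.0429 TPM with media, with Epcam below 0.1 TPM. Krt18 was at 0.266 and 0.805 TPM and Krt8 at 0.0296 and 0.346 TPM with these CM, and both were at 0 TPM with media. Pecam1 of the endothelial list was at 15.3 and 17.9 TPM, against 2.54 TPM with media and 9.96 TPM with NRF2 KO CM. Of the 3 endothelial genes tested, Pecam1 rose and Kdr fell in both CM, the latter from 3.25 to 1.33 and 1.31 TPM, and Cdh5 was at 2.20 and 2.36 TPM against 2.95 TPM. Of the 3 T cell markers tested, Cd4 fell in both CM, from 13.03 to 5.61 and 5.30 TPM, and was at 14.3 TPM with NRF2 KO CM. Their part in the result was not tested.

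The second comparison asked what CDDO-Me changed in each medium. In WT CM it raised Cd274, Cd86, Cd40, Icosl, Havcr2, Lgals9 and Tnfsf10, and in KEAP1 KO CM it raised the same 7 genes. In media and in NRF2 KO CM, none of the 10 genes passed the threshold. With the replicate number as a block, Havcr2 passed in both, lower with CDDO-Me. In media, Cd274, Cd86 and Cd40 also passed under some alternatives. Pdcd1lg2, the gene most responsive to cancer CM, was not raised in any medium and fell in KEAP1 KO CM. Its fall in WT CM passed with the replicate number as a block.

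In WT CM, 7 of 10 members were higher and 0 lower, where 13.9% of all genes were higher and 13.9% lower. As above, the members were chosen with earlier results known, and these counts are a description. In KEAP1 KO CM, 7 were higher and 1 lower, against 14.5% and 14.2% of all genes. Among the 8 members above 1 TPM everywhere, 6 were higher and 0 lower in each. In media, 0 members were called, 1 had an unadjusted p under 0.05, and 3.07% of all genes were higher and 2.94% lower. In NRF2 KO CM, 0 members were called and 1 had an unadjusted p under 0.05, against 4.49% and 5.28% of all genes. Without scaling between libraries, the median of all genes moved to -0.12 in WT CM and -0.17 in KEAP1 KO CM, and the share of higher genes among the calls from 49.89% to 39.13% and from 50.52% to 34.63%. The 7 members were called higher in both CM under each alternative tried, this scaling included, except that Tnfsf10 was not tested where a mean of at least 5 TPM was required.

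Cd274 rose above Vsir, otherwise the most abundant member. It was at 356, 321 and 386 TPM in WT CM/CDDO-Me BMDMs and at 342, 313 and 392 TPM in KEAP1 KO CM/CDDO-Me BMDMs. With CDDO-Me in media it was at 15.7, 13.6 and 28.2 TPM, and in NRF2 KO CM at 16.01, 14.5 and 28.3 TPM. The first 6 libraries lay above every other library of the study by more than the spread within any group. The mean TPM was 7.36-fold and 7.86-fold that of the same CM with vehicle. The log2 fold changes were 2.98 (SE 0.30, adjusted p = 1.85e-07) in WT CM and 3.14 (SE 0.30, adjusted p = 9.42e-08) in KEAP1 KO CM, and ranged from 2.84 to 3.16 and from 2.93 to 3.34 over the alternatives. They were -0.37 in media (95% interval -1.0 to 0.26) and -0.08 in NRF2 KO CM (95% interval -0.71 to 0.55). With array weights, the difference in media passed (-0.56, adjusted p = 0.0182).

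Pdcd1lg2 did not follow its neighbour. It was at 25.7, 26.9 and 31.9 TPM in WT CM/CDDO-Me BMDMs and at 16.6, 21.2 and 28.5 TPM in KEAP1 KO CM/CDDO-Me BMDMs. Every library was below every vehicle library of the same CM and far above media. The log2 fold change was -0.62 in WT CM (SE 0.29, adjusted p = 0.133), and -0.32 there without WT CM/vehicle replicate 3 (adjusted p = 0.527). With the replicate number as a block, the difference in WT CM passed (adjusted p = 0.00481). Across genes, deviations of the same-numbered libraries from the means of these groups correlated at r = 0.062, 0.334 and 0.373. The first is under the 0.1 used to regard groups as paired by the number. In KEAP1 KO CM the log2 fold change was -0.80 (SE 0.29, adjusted p = 0.0464). The latter call was lost in 4 of 6 fits with a library left out, and without KEAP1 KO CM/vehicle replicate 3 the value was -0.49 (adjusted p = 0.263). With CDDO-Me in media and in NRF2 KO CM, Pdcd1lg2 stayed between 0.0741 and 0.487 TPM.

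The B7 molecules parted. Cd86 was at 75.7, 66.1 and 76.1 TPM in WT CM/CDDO-Me BMDMs and at 60.3, 54.3 and 71.4 TPM in KEAP1 KO CM/CDDO-Me BMDMs, against 3.59, 3.56 and 3.70 TPM with CDDO-Me in media and 4.48, 4.28 and 7.30 TPM in NRF2 KO CM. The rises were 2.56 (SE 0.37, adjusted p = 2.12e-05) and 2.28 (SE 0.37, adjusted p = 7.41e-05). In media the log2 fold change was -0.59 (SE 0.37, adjusted p = 0.541), although each CDDO-Me library was below each vehicle library. Its lowest adjusted p over the alternatives was 0.0166. Cd80 stayed between 9.68 and 16.6 TPM over the 12 CDDO-Me libraries, with log2 fold changes from -0.01 (95% interval -0.32 to 0.31) in WT CM to 0.23 (95% interval -0.09 to 0.54) in KEAP1 KO CM.

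Cd40 and Icosl, which had moved in opposite directions with cancer CM alone, both rose. Icosl was at 20.5, 18.3 and 16.8 TPM in WT CM/CDDO-Me BMDMs and at 20.1, 16.7 and 18.5 TPM in KEAP1 KO CM/CDDO-Me BMDMs. All 6 were above every other library, and the log2 fold changes were 2.49 (SE 0.15, adjusted p = 7.97e-11) and 2.43 (SE 0.15, adjusted p = 1.06e-10). Cd40 was at 32.6, 32.0 and 37.4 TPM in WT CM/CDDO-Me BMDMs, a rise of 1.04 (SE 0.27, adjusted p = 0.00539). In KEAP1 KO CM/CDDO-Me BMDMs it was at 112, 34.1 and 40.8 TPM, a rise of 1.79 (SE 0.27, adjusted p = 2.56e-05). Replicate 1 stood apart there, and without it the rise was 1.26 (adjusted p = 3.06e-07). In media, Cd40 was at 3.60, 3.46 and 2.96 TPM with CDDO-Me, each below the vehicle libraries, and the log2 fold change of -0.53 did not pass (adjusted p = 0.354). Its lowest adjusted p over the alternatives was 0.0281.

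Replicate 1 of KEAP1 KO CM/CDDO-Me was also high in other genes of these pathways. In the lists described below, 8 of 66 genes tested were at least 1.5-fold above both other libraries of the group, where 2.09% of all genes were. Replicate 3 of NRF2 KO CM/CDDO-Me had 11 such genes, where 8.25% of all genes were. Nfkb2, an NF-kappaB subunit of the noncanonical pathway, was at 83.8, 37.3 and 36.0 TPM in the 3 libraries, and its partner Relb at 56.4, 20.3 and 24.5 TPM. The adaptors Traf1 and Traf3 were at 22.96, 11.9 and 7.56 TPM and at 21.7, 12.6 and 10.3 TPM, and the adhesion molecule Icam1 at 415, 233 and 248 TPM. The other 3 genes were Cd200, Tnfsf4 and Tnfsf9. This library was examined after its Cd40 value had been seen.

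TIM-3 and its ligand galectin-9 both rose at the RNA level. Havcr2 was at 25.3, 24.6 and 24.5 TPM in WT CM/CDDO-Me BMDMs and at 21.2, 21.6 and 30.6 TPM in KEAP1 KO CM/CDDO-Me BMDMs, a rise of 2.24 (SE 0.22, adjusted p = 1.58e-07) and 1.84 (SE 0.22, adjusted p = 2.05e-06). All 6 libraries were above the media/vehicle range of 11.7 to 12.7 TPM. With CDDO-Me in media, Havcr2 was at 7.61, 6.21 and 9.70 TPM, with a difference of -0.61 (SE 0.22, adjusted p = 0.138), and in NRF2 KO CM at 6.67, 6.43 and 9.42 TPM, with a difference of -0.51 (SE 0.22, adjusted p = 0.189). With the replicate number as a block, both of these differences passed (adjusted p = 0.0077 and 0.0183), and that in media passed without the 2 NRF2 KO libraries that stood apart (adjusted p = 0.0182). Lgals9 was at 115, 114 and 97.8 TPM in WT CM/CDDO-Me BMDMs and at 107, 112 and 97.8 TPM in KEAP1 KO CM/CDDO-Me BMDMs, smaller rises of 0.75 (SE 0.09, adjusted p = 2.85e-06) and 0.54 (SE 0.09, adjusted p = 0.000135). Vsir was at 195 to 242 TPM in these 6 libraries and its log2 fold changes were -0.12 (95% interval -0.43 to 0.19) and 0.00 (95% interval -0.31 to 0.31).

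Tnfsf10 was detected above 1 TPM in these groups and in no other. It was at 15.0, 13.7 and 23.2 TPM in WT CM/CDDO-Me BMDMs and at 17.2, 15.6 and 26.9 TPM in KEAP1 KO CM/CDDO-Me BMDMs. The other 18 libraries were at 0.0631 to 0.659 TPM. The mean TPM was 34.1-fold and 41.8-fold that of the same CM with vehicle. The log2 fold changes were 3.68 (SE 0.19, adjusted p = 1.15e-11) and 3.91 (SE 0.19, adjusted p = 4.66e-12), from 4.94 and 5.24 with a pseudocount of 0.1 to 2.09 and 2.25 with 5.

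**Figure D3:**
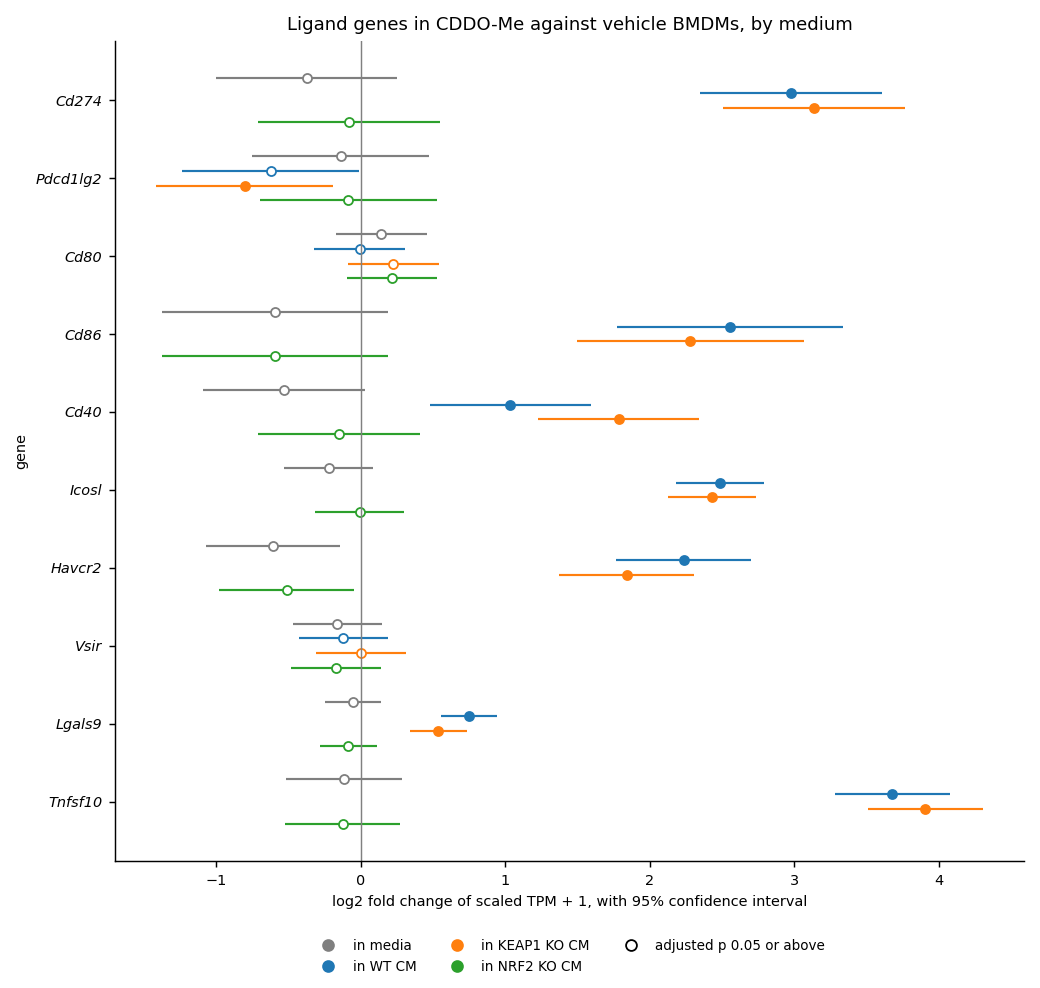
Differences of the 10 genes between CDDO-Me and vehicle BMDMs (horizontal axis, log2 fold change of scaled TPM plus 1), with 95% confidence intervals as lines and 1 color for each medium. Filled points had an adjusted p under 0.05. The 7 raised genes have filled points for WT and KEAP1 KO CM only, from 0.54 for Lgals9 to 3.91 for Tnfsf10.

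The dependence on the medium was tested as an interaction. The effect of CDDO-Me in WT CM differed from its effect in media for 7 of 10 members, against 15% of all genes, and in KEAP1 KO CM for the same 7, against 14.7%. Among the 8 members above 1 TPM everywhere, 6 differed in each. Without scaling, the difference for Lgals9 in KEAP1 KO CM was not called (0.42, adjusted p = 0.101). With the replicate number as a block, Pdcd1lg2 passed as well in KEAP1 KO CM (-0.66, adjusted p = 0.0436). The difference was 3.35 (SE 0.43, adjusted p = 9e-06) for Cd274 in WT CM and 3.51 (SE 0.43, adjusted p = 5.33e-06) in KEAP1 KO CM. For Tnfsf10 it was 3.79 (SE 0.27, adjusted p = 3.83e-09) and 4.02 (SE 0.27, adjusted p = 1.52e-09). Over the alternatives, the Tnfsf10 values ranged from 2.112 to 5.419 in WT CM and from 2.275 to 5.721 in KEAP1 KO CM. The effect in NRF2 KO CM differed from that in media for 0 members, with 0 members and 374 genes at an unadjusted p under 0.05 and 0% of all genes called. Its interval ran from -0.59 to 1.19 for Cd274 and from -1.11 to 1.10 for Cd86. The effects in KEAP1 KO CM and WT CM differed for 0 members, with 0 members and 225 genes at an unadjusted p under 0.05 and 0% of all genes called.

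With CDDO-Me, KEAP1 KO CM and WT CM BMDMs had no member past the threshold, and 0.0512% of all genes were called. Cd40 was the 1 member with an unadjusted p under 0.05, at a log2 fold change of 0.64 (95% interval 0.08 to 1.2) that was 0.11 without KEAP1 KO CM/CDDO-Me replicate 1. Each KEAP1 KO library was above each WT library for Cd80, with a difference of 0.30 (95% interval -0.02 to 0.61). The interval was -0.67 to 0.59 for Cd274 and -0.99 to 0.23 for Pdcd1lg2.

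Some markers of other cells were called with CDDO-Me in these media. The dendritic cell list summed to 136 TPM with WT CM and 81.6 TPM with KEAP1 KO CM, against 12.3 TPM in media/CDDO-Me and 8.16 TPM in NRF2 KO CM/CDDO-Me BMDMs. Clec9a, a receptor for dead cells known from cross-presenting dendritic cells, was the most abundant at 105 and 60.3 TPM and was below 0.3 TPM on average in the other 6 groups. Xcr1 of the same cells was at 3.86 and 2.07 TPM, while the defining dendritic genes Flt3 and Zbtb46 were at 0.0066 and 0.514 TPM with WT CM and at 0.0217 and 0.598 TPM with KEAP1 KO CM. Batf3, the main gene of this list with vehicle, fell from 53.4 to 26.5 TPM in WT CM (adjusted p = 0.0283) and from 42.9 to 18.3 TPM in KEAP1 KO CM (adjusted p = 0.011). Cdh1 fell from 3.52 and 4.65 TPM to 0.0106 and 0.0284 TPM, and Pecam1 from 15.3 and 17.9 TPM to 3.08 and 5.05 TPM, all called. Krt18 was at 0.0497 and 0.543 TPM against 0.266 and 0.805 TPM, and Krt8 at 0.0133 and 0.295 TPM against 0.0296 and 0.346 TPM. The endothelial gene Cdh5 was at 0.958 and 3.70 TPM against 2.20 and 2.36 TPM and was not called. The fibroblast list summed to 381 and 525 TPM, against 795 and 1132 TPM in the same CM with vehicle, with overlapping libraries. Matched by number, the sum was lower with CDDO-Me. In the libraries numbered 2 it went from 1100 to 575 TPM in WT CM and from 1445 to 776 TPM in KEAP1 KO CM. In those numbered 3 it went from 525 to 201 TPM and from 748 to 162 TPM. Of the 7 fibroblast genes, 1 was called in each CM, Pdgfra, which was lower. Among the T cell markers, Cd28 was at 2.87 and 2.80 TPM against 46.0 and 42.9 TPM, called lower in both, with Cd3e at or below 0.121 TPM in every group. With CDDO-Me in media Cd28 was at 14.6 against 43.9 TPM (adjusted p = 0.128) and in NRF2 KO CM at 22.4 against 61.96 TPM (adjusted p = 0.135). Of the other T cell markers tested, Lck was at 1.37 and 1.41 TPM against 0.419 and 0.841 TPM, called higher in WT CM, and Cd4 was at 4.55 and 4.61 TPM against 5.61 and 5.30 TPM. In media and NRF2 KO CM the T cell marker called lower with CDDO-Me was Cd4, at 5.35 and 5.62 TPM. S100a8 of the neutrophil list was at 33.5 and 56.8 TPM against 8.72 and 10.1 TPM, and at 22.6 and 37.0 TPM with CDDO-Me in media and NRF2 KO CM, with Ly6g below 0.5 TPM. The B cell list, mostly Cd22, summed to 10.8 and 11.3 TPM against 21.1 and 20.5 TPM, and 1 of its 2 genes tested, Cd22, was called lower. Hdc of the basophil or mast cell list was at 1.01 and 0.985 TPM against 0.190 and 0.0856 TPM. Of the 10 macrophage markers, 2 were called higher and 2 lower in WT CM, and 2 higher and 1 lower in KEAP1 KO CM. Among them, Fcgr1 was at 479 and 473 TPM against 50.5 and 46.5 TPM. Cd68 was at 725 and 708 TPM against 2109 and 1972 TPM. The part of other cells in the rises of the 7 members was not tested.

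**Figure D4:**
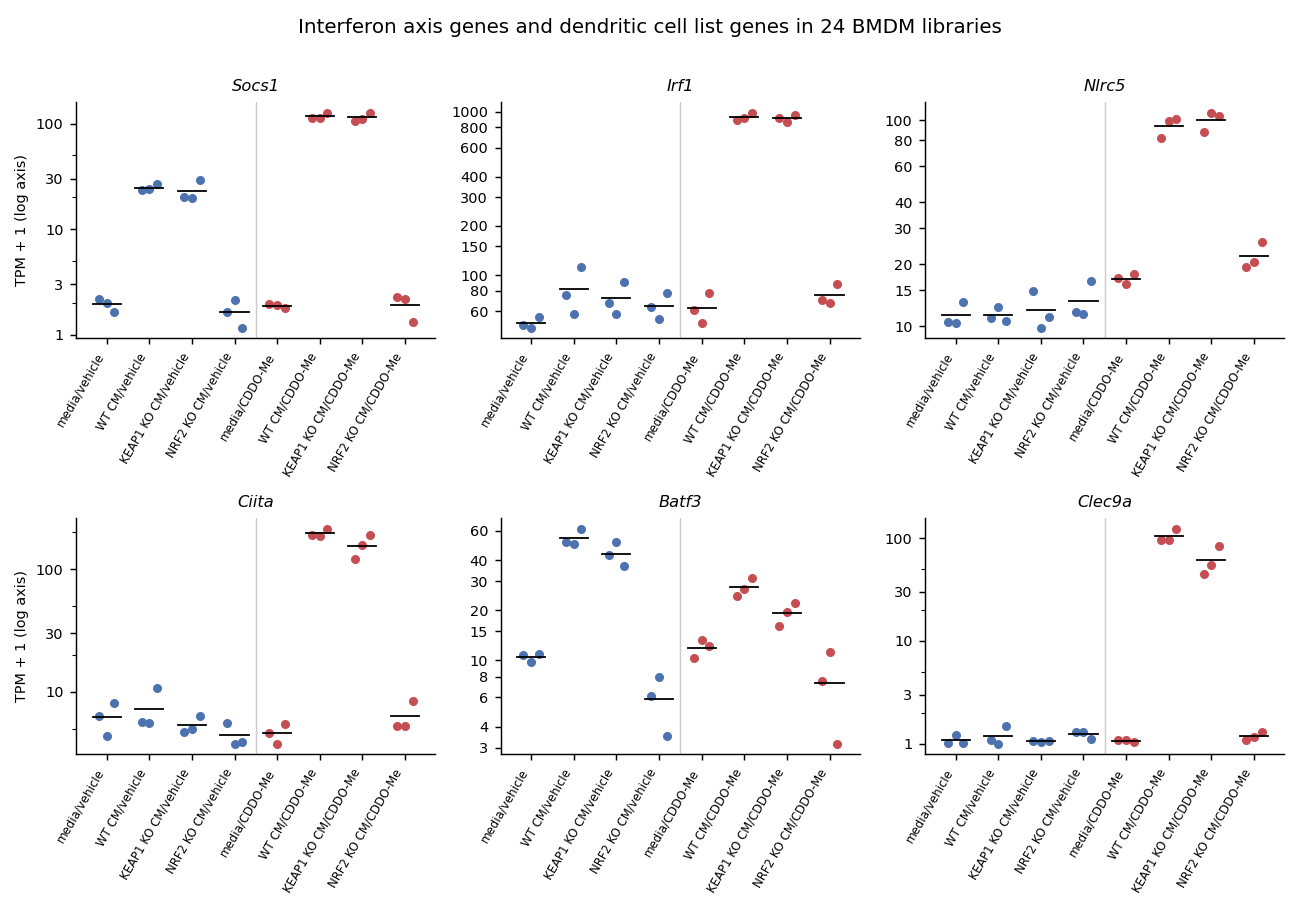
TPM plus 1 (log axis, a separate scale for each gene) of Socs1, Irf1, Nlrc5 and Ciita from the interferon list and of Batf3 and Clec9a from the dendritic cell list, in the 24 libraries by group. Points are libraries, bars are means, blue is vehicle and red is CDDO-Me. All but Batf3 are highest in CDDO-Me BMDMs with WT or KEAP1 KO CM, and Batf3 is highest in WT CM/vehicle BMDMs.

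The other genes of these pathways were taken from lists, which were chosen with earlier results of these data known. Counts from them are a description. Of 19 genes of the interferon to PD-L1 axis, all tested, 13 rose with CDDO-Me in WT CM and 13 in KEAP1 KO CM, with 0 lower in either, where 13.9% and 14.5% of all genes rose. Their median log2 fold change was 0.81 and 0.88, against -0.03 and -0.02 over all genes. Irf1, an interferon-induced activator of Cd274, rose from 81.0 ± 28.0 to 930 ± 50.02 TPM (SD, n = 3) in WT CM, by 3.67 (SE 0.25, adjusted p = 8.51e-10). The regulators of class I and class II antigen presentation, Nlrc5 and Ciita, rose by 3.16 (SE 0.20, adjusted p = 2.27e-10) and 4.93 (SE 0.30, adjusted p = 1.12e-10). In media 0 of 19 were called, where 3.07% of all genes rose and 2.94% fell. In NRF2 KO CM, where 4.49% of all genes rose, 3 of 19 did, Nlrc5 by 0.73 (adjusted p = 0.0233), Stat3 by 0.62 (adjusted p = 0.0403) and Cmtm6, which stabilizes PD-L1 at the cell surface, by 0.62 (adjusted p = 0.0147).

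Cancer CM alone moved other genes of this list. In WT CM and in KEAP1 KO CM with vehicle, Socs1, Jak2 and Stat2 rose and 0 fell, where 4.33% and 4.65% of all genes rose. Socs1, a feedback inhibitor of JAK signaling, was at 0.942 ± 0.274 TPM (SD, n = 3) with media, at 23.7 ± 1.82 TPM with WT CM (log2 fold change 3.71, SE 0.21, adjusted p = 2.45e-10) and at 21.9 ± 5.41 TPM with KEAP1 KO CM. Jak2, which lies on chromosome 19 as Cd274 does, rose by 1.09 (SE 0.13, adjusted p = 9.89e-06) and 1.11 (SE 0.13, adjusted p = 7.28e-06). Stat2 rose by 0.77 (SE 0.11, adjusted p = 0.000153) and 0.71 (SE 0.11, adjusted p = 0.000307). The median over the list was 0.13 and 0.08, against 0.01 and 0.00 over all genes.

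Of 41 other costimulatory and coinhibitory genes, 39 were in the table and 29 were tested. With CDDO-Me, 12 rose and 6 fell in WT CM (13.9% and 13.9% of all genes) and 15 rose and 5 fell in KEAP1 KO CM (14.5% and 14.2% of all genes), with medians of 0.42 in both against -0.03 and -0.02 over all genes. The largest rise was that of Fgl2, a secreted immunosuppressive protein, from 23.4 ± 8.17 to 712 ± 112 TPM (SD, n = 3) in WT CM, by 5.02 (SE 0.35, adjusted p = 8.02e-10), and from 19.4 ± 6.13 to 655 ± 147 TPM in KEAP1 KO CM. Icam1 rose by 3.40 (SE 0.18, adjusted p = 1.22e-11) in WT CM and 3.70 (SE 0.18, adjusted p = 3.4e-12) in KEAP1 KO CM. Tnfsf13b (BAFF, a B cell survival factor) rose by 3.25 and 2.86, and H2-T23 (Qa-1, the ligand of the NKG2A receptor) by 2.33 in WT CM (SE 0.28, adjusted p = 1.75e-06). Reads of H2-T23 may be shared with other class I genes of the same family, so its level is uncertain. Cd1d1, which presents lipids to NKT cells, rose by 2.88 in KEAP1 KO CM (SE 0.25, adjusted p = 2.39e-08). In media 4 of 29 fell and 0 rose, where 2.94% and 3.07% of all genes did, among them Clec2d by -0.75 (adjusted p = 0.00144) and Sirpa by -0.53 (adjusted p = 0.0198). In NRF2 KO CM 4 rose and 6 fell, where 4.49% and 5.28% of all genes did, Icam1 among the former (0.99, SE 0.18, adjusted p = 0.000822).

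With cancer CM and vehicle, 1 of the 29 rose and 1 fell in WT CM, and 0 rose and 7 fell in KEAP1 KO CM. Of all genes, 4.33% rose and 3.02% fell with WT CM, and 4.65% rose and 3.31% fell with KEAP1 KO CM. Siglece, an inhibitory sialic acid receptor, fell from 3.95 ± 1.55 to 0.687 ± 0.135 TPM (SD, n = 3) in WT CM, by -1.45 (SE 0.25, adjusted p = 0.000664), and to 0.569 ± 0.220 TPM in KEAP1 KO CM. Cd200 fell in KEAP1 KO CM by -1.49 (SE 0.38, adjusted p = 0.0174). The medians were -0.15 and -0.16, against 0.01 and 0.00 over all genes.

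Of 21 partners of TRAIL, TIM-3 and CD40, 19 were tested. With CDDO-Me, 1 rose and 4 fell in WT CM, where 13.9% of all genes rose and 13.9% fell, and 3 rose and 1 fell in KEAP1 KO CM, where 14.5% rose and 14.2% fell, with medians of 0.00 and 0.13 against -0.03 and -0.02 over all genes. Without KEAP1 KO CM/CDDO-Me replicate 1, an alternative added after the data were seen, 1 rose and 1 fell in KEAP1 KO CM. The rises of Traf1 (0.89, adjusted p = 0.0786) and Relb (0.43, adjusted p = 0.332) were no longer called. Map3k14 (NIK), the kinase that links CD40 to noncanonical NF-kappaB, rose in both, from 9.22 ± 0.722 to 17.4 ± 1.29 TPM (SD, n = 3) in WT CM (0.95, SE 0.10, adjusted p = 1.71e-07) and by 0.97 in KEAP1 KO CM (SE 0.10, adjusted p = 1.28e-07). It also rose in media by 0.52 (SE 0.10, adjusted p = 0.00142) and in NRF2 KO CM by 0.69 (SE 0.10, adjusted p = 5.62e-05). The mouse decoy TRAIL receptors Tnfrsf22 and Tnfrsf23 and the related Tnfrsf26 fell in WT CM, by -0.97 (SE 0.31, adjusted p = 0.0212), -0.85 (SE 0.19, adjusted p = 0.00191) and -0.93 (SE 0.25, adjusted p = 0.00832). In media, where 3.07% of all genes rose and 2.94% fell, 3 of the 19 rose with CDDO-Me and 0 fell. In NRF2 KO CM, where 4.49% of all genes rose and 5.28% fell, the counts were also 3 and 0. At an unadjusted p under 0.05 in limma, 1 and 2 were lower in these media. Tnfrsf26 was among the 3, with rises of 0.92 (adjusted p = 0.036) and 0.90 (adjusted p = 0.0283). Tnfrsf26 had risen with WT CM alone, by 1.26 (SE 0.25, adjusted p = 0.00304), as had Traf5 (0.53, SE 0.12, adjusted p = 0.0105). The 2 calls with KEAP1 KO CM alone were Tnfrsf26 and Traf5 as well. With each CM alone, 2 of the 19 rose and 0 fell. Of all genes, 4.33% rose and 3.02% fell with WT CM, and 4.65% rose and 3.31% fell with KEAP1 KO CM.

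Across the 8 group means, other genes tracked single members closely, which is given as a description only. The 3 genes most like Cd274, among 4001 genes of at least 1 TPM on average and a range of at least 1 on the log2 scale, were Stat2, Serpina3g and Cept1 (Pearson r of 0.997, 0.996 and 0.995). For Tnfsf10 they were Gbp11, Upp1 and Gbp6 (0.999 each), and for Pdcd1lg2 they were Zbtb5, Ccl8 and Secisbp2l (0.996, 0.994 and 0.989). The chemokine Ccl8 is known from alternatively activated macrophages, and Gbp11 and Gbp6 are interferon-induced GTPases. Cd86 was closest to AB124611, Cd40 to Slamf6, Icosl to Klf6 and Havcr2 to Pigz (0.996, 0.988, 0.989 and 0.988). Among the members themselves, Cd274 correlated with Cd86 at r = 0.985, with Tnfsf10 at 0.977, with Pdcd1lg2 at 0.707 and with Vsir at -0.759, and Pdcd1lg2 correlated with Icosl at 0.068.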

How the data were processed

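The authors had poly-A libraries of 24 samples sequenced, quantified them with kallisto 0.51.0 on GRCm39 transcripts, and tested groups with limma 3.58.1 after a low-count filter and TMM scaling. The deposited values were taken as TPM by their total, although their file is named as counts, so no count test was used. The authors state an average depth, and that of each library is unknown. Samples were grouped by their labels. A line without a gene name (0.0199% to 0.0635% of TPM) was left out.

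Libraries were scaled by a trimmed mean of log ratios (trims of 30% and 5%), log2 of the scaled TPM plus 1 was taken, and the 13661 genes that exceeded 1 TPM in 3 or more libraries were kept. One limma 3.58.1 fit (R 4.3.3) of the 8 groups, with a trend and 16 residual degrees of freedom, gave two-sided p-values adjusted by the Benjamini-Hochberg method for 14 comparisons. The script was tested on simulated data. Alternatives were another scaling or none, no or a stricter filter, other pseudocounts, no trend, array weights, a replicate block, the compared groups alone and each library left out.

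The members and lists were chosen with earlier results of these data known. From each list, up to 4 called genes with the largest change per comparison could be named. Genes of the marker lists and of the library that stood apart were named after their values were seen. Positions come from GENCODE vM39 on GRCm39, and promoter sequences from RefSeq (table on GRCm38.p6, 8 of 10 members matched, Cd86 and Cd40 not). One item of the lists is not reported here.

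Replicate numbers are in the labels, and whether a number marks a shared culture is not stated. Across genes, the deviations of libraries from their group's mean had an average r of 0.256 where numbers matched and -0.121 where they differed. Every same-numbered pair was over 0.1 in 15 of 28 pairs of groups, and those groups were regarded as paired by the number. These include media/vehicle with WT CM/vehicle, both treatments of media, both treatments of NRF2 KO CM, and KEAP1 KO CM with WT CM. The lowest same-numbered r over all pairs of groups was 0.022. The reported fit had no replicate block, so its p-values are unpaired. Paired values are given only where the block is named.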

Additional observations from a re-analysis of the deposited data

Results flagged for a closer look

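The results singled out here are those whose effect of CDDO-Me differed between a cancer CM and media by the test of the difference itself, in log2 units with the adjusted p of limma. For Cd274 the difference was 3.35 in WT CM (adjusted p = 9e-06) and 3.51 in KEAP1 KO CM (adjusted p = 5.33e-06). For Cd86 it was 3.15 (adjusted p = 0.000234) and 2.87 (adjusted p = 0.000617). For Cd40 it was 1.57 (adjusted p = 0.00643) and 2.32 (adjusted p = 0.000179), the latter 1.79 without KEAP1 KO CM/CDDO-Me replicate 1. For Icosl it was 2.71 (adjusted p = 9.56e-09) and 2.65 (adjusted p = 1.3e-08). For Havcr2 it was 2.84 (adjusted p = 1.65e-06) and 2.45 (adjusted p = 1.15e-05). For Lgals9 it was 0.80 (adjusted p = 0.000187) and 0.59 (adjusted p = 0.00354), the latter 0.42 without scaling (adjusted p = 0.101). For Tnfsf10 it was 3.79 (adjusted p = 3.83e-09) and 4.02 (adjusted p = 1.52e-09), with ranges of 2.112 to 5.419 and 2.275 to 5.721 over the alternatives. Tnfsf10 passed the low-value filter only through the groups where it was high, so its p-values follow a selection by the same values. In all 7 genes each CDDO-Me library was above each vehicle library of the same CM.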

How the results depend on the processing

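Of 2594 fold changes recomputed under the alternatives, 2515 kept their direction and side of the threshold or were called in neither fit, 44 lost and 35 gained a call, and 0 called values changed sign. A further count of 116 sign changes fell between values called in neither fit and is contained in the 2515. The numbers of members called in the 14 comparisons mostly stayed within 1.5 times the reported number. With array weights, 8 members were called for WT CM against media (5 reported), 2 for CDDO-Me in media (0), 1 for CDDO-Me in NRF2 KO CM (0) and 1 for KEAP1 KO CM against WT CM with vehicle (0). The share of all genes called under each alternative is not given here. Changes in these numbers are therefore not read as particular to the members. Without scaling, 1 was called for CDDO-Me in media, and without the 2 libraries with the fewest genes, an alternative chosen after the data were seen, also 1. With the compared groups alone, 2 were called for CDDO-Me in media and 3 for WT CM against NRF2 KO CM (6 reported), where Cd274 (adjusted p = 0.0935), Havcr2 (adjusted p = 0.153) and Vsir (adjusted p = 0.319) were lost. With each library left out in turn, the number for KEAP1 KO CM against media ranged from 3 to 5 (6 reported), for WT CM against media from 4 to 5, for WT CM against NRF2 KO CM from 4 to 6, for CDDO-Me in WT CM from 7 to 7 and in KEAP1 KO CM from 7 to 8.

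With the replicate block, 1 member was called for CDDO-Me in media and 1 for CDDO-Me in NRF2 KO CM, Havcr2 in both. It also moved comparisons whose groups were not all paired by the number: Cd274 and Cd86 passed for KEAP1 KO CM against media (adjusted p = 0.0026 and 0.0162), as did Pdcd1lg2 for CDDO-Me in WT CM (adjusted p = 0.00481) and for the difference between KEAP1 KO CM and media (-0.66, adjusted p = 0.0436). Beside these and Cd86 for WT CM against media, the block changed no other call. The difference for Lgals9 between KEAP1 KO CM and media was lost without scaling (0.42, adjusted p = 0.101). Without KEAP1 KO CM/CDDO-Me replicate 1, the calls with CDDO-Me in KEAP1 KO CM were 12 higher and 0 lower in the interferon list and 13 higher and 4 lower among the costimulatory and coinhibitory genes. The causes were not tested. The unknown depth of each library limits what can be said of Pdcd1lg2 and Tnfsf10 where they were under 1 TPM.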
